A study of Homo sapiens with 54 samples.

Results

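The genes described here are 41 genes of DNA replication and S phase, found by their symbols in the gene identifiers of the deposited table, which lists 58870 genes. All 41 had counts and passed the filter on low counts in each comparison. RNA was sequenced from A549 cells, an established human lung adenocarcinoma line, to compare their response to 3 coded compounds with and without engineered USP18, the protease that removes the ubiquitin-like protein ISG15 from other proteins. Cells carried an empty vector or a USP18 expression vector, each as 1 engineered population, and were treated for 48 h with vehicle (DMSO), CP2 at 2 or 5 µM, or CP14 or CP18 at 1, 2.5 or 5 µM. The 2 vectors and 9 treatments gave 18 groups of 3 libraries, 54 libraries in all. The labels do not say which code stands for β-lapachone or any other inhibitor the study names, and no structure is given here for any code. The paper states in general that its experiments were mostly run in triplicate with independent biological replicates, but nothing in the labels says that the 3 libraries of a group came from separate cultures, so p-values measure the spread between samples, which may be technical.

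Chromosomes are copied once per cell cycle, in S phase. Origins are first licensed by loading the MCM helicase onto DNA; kinases then activate the helicase, polymerases copy both strands around the PCNA clamp, nucleases and ligase join the lagging-strand fragments, and enzymes of nucleotide metabolism supply the precursors. Most genes for these proteins are targets of E2F transcription factors, are transcribed mainly as cells pass from G1 into S phase, and are abundant in tumor lines that divide quickly.

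By role, licensing was represented by ORC1, ORC6, CDC6 and CDT1; the MCM helicase by MCM2, MCM3, MCM4, MCM5, MCM6 and MCM7; helicase activation by CDC45, GINS1, GINS2, GINS3, GINS4, MCM10, CDC7 and DBF4; and the polymerases by POLA1, POLA2, PRIM1, POLD1, POLE and POLE2. The clamp and its loader were PCNA, RFC2, RFC3, RFC4 and RFC5. Joining of Okazaki fragments was represented by FEN1 and LIG1, nucleotide supply by TYMS, TK1, RRM1 and RRM2, fork protection and maintenance of DNA methylation by CLSPN, TIMELESS and UHRF1, and the E2F factors by E2F1, E2F2 and E2F8.

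Total expected counts per library ran from 16673228 to 25609062, with a median of 19701304. The lowest count of any member in any library was 53, for E2F8, and the highest was 12655, for PCNA. Levels are given as CPM, the usual counts of a gene relative to its library's total, scaled by edgeR's TMM factors over all 54 libraries. A member is called lower or higher where the adjusted p was under 0.05, and the study's own threshold also asked for a log2 fold change beyond 1. In bulk RNA, fewer cells in S phase and less of these RNAs per cell cannot be told apart.

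USP18 itself was read first, as a check of the vector labels. Its level, as CPM of the total count, lay between 8.65 and 12.2 in the 27 empty-vector libraries and between 938 and 2220 in the 27 USP18 libraries. The ranges of the vectors did not overlap, and the highest USP18 values, 2050, 2220 and 2140, were in the libraries with 5 µM CP14. Epithelial markers summed to between 6360 and 13300 CPM over the libraries (median 9160), with KRT8 among the most abundant at 1260 to 6280. Alveolar type II markers summed to 35.9 to 122 CPM (median 54.2), most of it ABCA3 at 32.6 to 99.8, whereas SFTPA1 and SFTPB were at 0 in every library and NKX2-1 reached at most 0.742. Endothelial markers summed to at most 0.596 CPM (median 0.224) and fibroblast markers to 4.39 to 17.3 (median 9.29, with COL1A1 the most abundant). Leukocyte markers summed to 33.6 to 99.6 CPM (median 39.2), nearly all of it CD68, with CD3E at 0. With 5 µM CP14, markers moved in both directions. Of 7 epithelial markers, 4 were lower and 1 higher with the empty vector and 4 and 3 with USP18, with KRT8 at a log2 fold change of −1.50 and −1.49 and KRT7 at 0.94 and 1.16. Of 3 alveolar type II markers tested, 2 were higher in both vectors, LAMP3 at 4.62 and 4.55 and ABCA3 at 0.86 and 0.96. Of 2 leukocyte markers tested, CD68 was higher (0.85 and 1.56) and CD14 lower (−1.96 and −3.84), and of 3 fibroblast markers tested, 3 were lower with the empty vector and 2 with USP18. The part of these markers in the members' results was not tested.

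The promoters of 37 members with an entry in the RefSeq promoter set (GRCh38.p14) were searched for letters that E2F factors are known to bind. No entry was found for MCM4, MCM5, GINS4 and E2F8. Each window held 300 bases, from 250 before to 50 after the annotated start, and both strands were read for TTTCCCGC, TTTGGCGC, TTTCGCGC and TTTGCCGC. Of the 37 promoters, 21 (56.8%) held at least 1 of the 4 words, whereas 3.33% of all 27303 promoters of the same length did, as did 5.22% of the promoters of genes tested here and 4.44% of those of protein-coding genes. Of 32 promoters of a list of other replication genes, 5 (15.6%) held a word, as did 3 of 23 (13%) of a list of mitosis genes. These shares use 1 window per gene. With any window listed for a gene counted, they were 59.5% for the members, 25% for the other replication genes and 13% for the mitosis genes. The share of all genes was then 3.99%. The words were found in 11, 8, 5 and 1 of the 37, in the order given (29.7%, 21.6%, 13.5% and 2.7%), against 1.66%, 0.659%, 0.546% and 0.564% of all promoters. Of the 28 matches, 24 began before the start, and 17 were centred in the 100 bases before it. MCM6 held 4 matches, and MCM2, MCM3, MCM7 and E2F1 held 2 each, with overlapping matches in MCM6 and MCM2, where TTTGGCGC or TTTCGCGC shares its last 4 letters with TTTCGCGC on the other strand. The letters TTTGAA, part of an element common in promoters of mitosis genes, were in 2 of the 37 (5.41%), in 17 of the 23 promoters of the mitosis list (73.9%), in 15.4% of all promoters and in 9.53% of those of genes tested. A match is a description of letters and not a measured binding site, and no match says only that these letters are not in this window. The part of these letters in the members' responses was not tested.

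The stretches that follow are those of the members whose values are given for each library and whose promoter held a match, with MCM6 added after the matches were seen because it held the most. Each is 30 bases, 5′ to 3′ on the strand of the gene, with the matching letters in capitals; GCGGGAAA is TTTCCCGC read on the other strand. They lie, in the order shown, at chr16:88803743-88803772 (plus strand), chr16:85688967-85688996 (minus), chr16:58392455-58392484 (plus), chr11:65261898-65261927 (plus), chr20:5126663-5126692 (minus), chr1:35769965-35769994 (minus) and chr2:135876577-135876606 (minus) of GRCh38.p14.
CDT1: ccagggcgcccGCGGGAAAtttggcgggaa
GINS2: ctctcgccgtgGCGGGAAAacggcggccgc
GINS3: cgtccccgggcGCGGGAAAcgagtttcaat
POLA2: ttggctcccggTTTCGCGCatgcgtgcact
PCNA: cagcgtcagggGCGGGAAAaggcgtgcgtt
CLSPN: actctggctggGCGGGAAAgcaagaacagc
MCM6: agggctttgcaTTTGGCGCgaaatcccttt
The same word on the same strand was thus centred 31 bases before the start in CDT1, 27 in GINS2, 1 in GINS3 and in CLSPN, and 55 in PCNA.

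**Figure D1:**
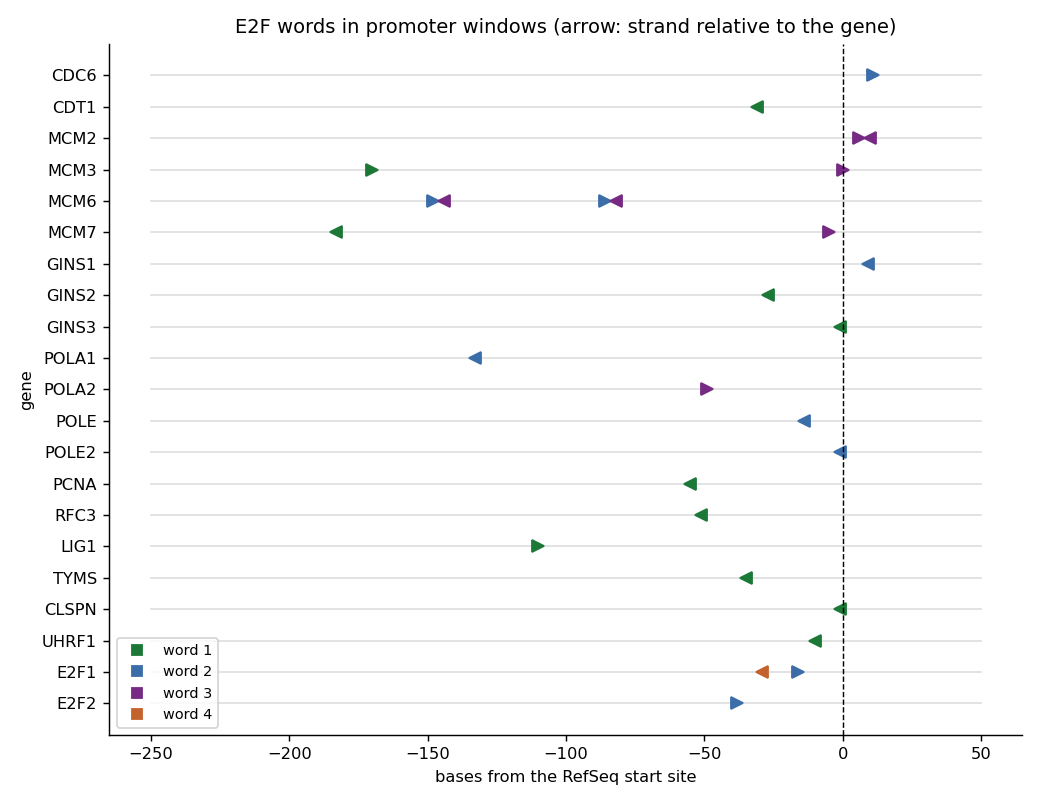
Position of each match to the 4 E2F words in the promoters of members, as the distance of its centre from the annotated start (x axis, bases) for each gene (y axis); words 1 to 4 are TTTCCCGC, TTTGGCGC, TTTCGCGC and TTTGCCGC, and arrows point along the strand read. Of the 28 matches, 24 begin before the start.

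With vehicle, the members were not equally abundant. Compared between genes only as CPM per kb of merged exons of all annotated isoforms (GENCODE v44), PCNA, the sliding clamp, was highest in empty-vector cells at 361, followed by TYMS at 70.8, MCM7 at 66.8, TK1 at 64.2 and FEN1 at 52.7. The lowest were GINS3 at 4.22, POLA1 at 3.85 and POLA2 at 3.25. The merged exons of POLA1 and POLA2 are long, at 15547 and 12006 bases, against 2942 for POLE2. In CPM not divided by length, POLA1 was at 59.9 and POLA2 at 39.1, above POLE2 at 18.4. The low rank of POLA1 and POLA2 thus depends on the exon lengths used.

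The first comparison set USP18 cells against empty-vector cells, with vehicle in both. Each vector is 1 engineered population, so USP18 and other differences between the populations cannot be told apart. PCNA (ENSG00000132646.11, chr20:5114953-5126626, GRCh38, GENCODE v44) was read at 512, 503 and 505 CPM in the empty-vector libraries and at 316, 316 and 311 CPM in the USP18 libraries. Each USP18 library was below each empty-vector library. Its log2 fold change was −0.70 (SE 0.0238, adjusted p = 4.12e-14, edgeR's quasi-likelihood test with Benjamini-Hochberg adjustment over all genes tested), lower in 3 of 3 libraries. GINS2 (ENSG00000131153.9, chr16:85676198-85690073), a subunit of the GINS complex that works with MCM and CDC45 as the active helicase, was at 39.7, 39.1 and 44.4 CPM with the empty vector and 25.3, 28.4 and 29.4 CPM with USP18. CDT1 (ENSG00000167513.9, chr16:88803789-88809258), which loads MCM at origins, was at 44.2, 44.4 and 45.1 CPM and at 28, 31.7 and 33.2 CPM. For both genes the vectors did not overlap, and the log2 fold changes were −0.58 (SE 0.0663) for GINS2 and −0.53 (SE 0.0607) for CDT1.

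In all, 21 members were lower in USP18 cells and 8 were higher, as compared with 28.7% and 29.0% of all genes tested that were lower and higher. The members' median log2 fold change was −0.11 (−0.07 without empty-vector replicate 3), and that of all genes was −0.01. Besides PCNA, GINS2 and CDT1, the lower members were MCM4, GINS4, UHRF1, LIG1, E2F2, MCM2, POLA1, ORC6, POLD1, MCM3, MCM6, E2F1, ORC1, GINS1, MCM10, FEN1, TYMS and RRM2. The higher members were TIMELESS (log2 fold change 0.26, SE 0.026), POLE2, PRIM1, DBF4, TK1, RFC5, MCM7 and POLE. The share of the higher members, 8 of 41, was below that of all genes. Markers and RNAs without a poly(A) tail differed between the vectors too. Of 7 epithelial markers, 5 were lower and 1 higher in USP18 cells, with EPCAM at −2.12, KRT8 at −0.72 and KRT19 at 2.63. Of 3 alveolar type II markers tested, 1 was lower and 1, LAMP3, higher at 1.87, of 2 leukocyte markers 1 was lower, and of 3 fibroblast markers 2 were lower and 1, COL3A1, higher at 2.02. RNAs without a poly(A) tail were counted by entry, with 2 entries for RMRP, and of 7 entries tested, 6 were lower (median −2.04). The part of these markers and RNAs in the members' results was not tested.

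Some of the calls with vehicle rested on single libraries. ORC1 no longer passed without replicate 3 of either vector (−0.13 without that of the empty vector, −0.16 without that of USP18), nor RFC5 without replicate 2 of either (0.09 and 0.10). RRM2 no longer passed without empty-vector replicate 3 (−0.04) or USP18 replicate 1, 2 or 3 (−0.08, −0.08 and −0.06).

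As a share of each library's total count, the 41 members together took up 0.411% to 0.427% with vehicle and the empty vector and 0.379% to 0.384% with vehicle and USP18. With 5 µM CP14, the share was 0.151%, 0.153% and 0.159% with the empty vector, while USP18 cells had 0.138%, 0.139% and 0.141%. These 6 libraries lay apart from the other 48, which ran from 0.363% to 0.433%. Among USP18 libraries at lower doses or with the other compounds, the share was 0.4% to 0.426% with 1 µM CP14, 0.363% to 0.382% with 2.5 µM CP14, 0.401% to 0.433% over the doses of CP18, 0.38% to 0.39% with 2 µM CP2 and 0.423% to 0.427% with 5 µM CP2. Total counts of the libraries with 5 µM CP14 lay within the range of the others, as did the mitochondrial share (2.71% to 2.99%, with 2.15% to 4% over all libraries).

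**Figure D2:**
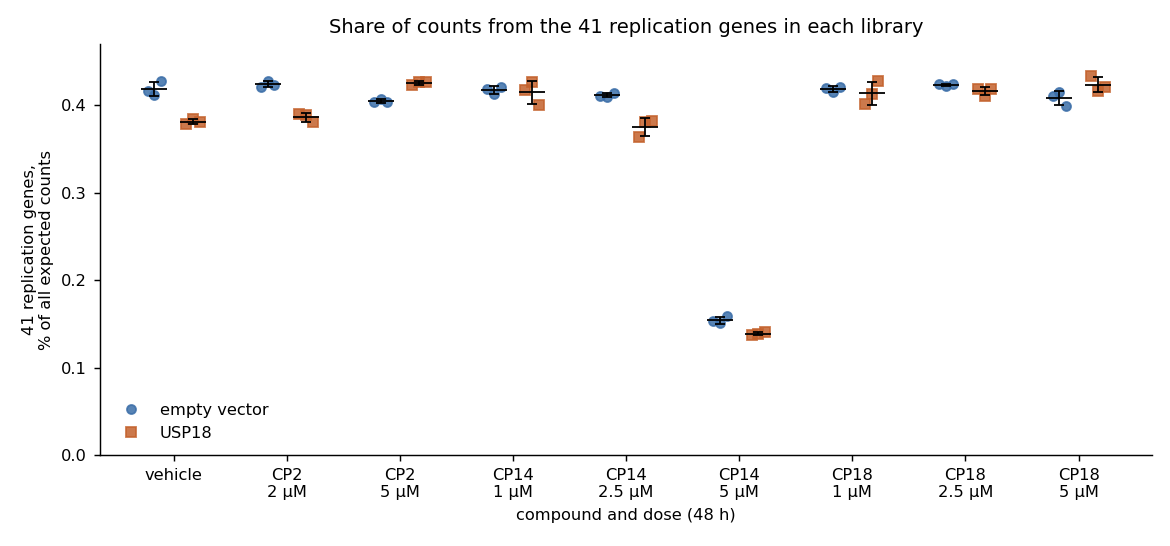
Share of each library's total expected count held by the 41 members (y axis, percent) by compound, dose and vector (x axis), 1 point per library with the mean and SD of each group of 3. The 6 libraries with 5 µM CP14 sit at 0.138% to 0.159%, below all others.

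At 5 µM CP14, the members were compared with vehicle in each vector. All 41 were lower in empty-vector cells (32.1% of all genes tested were lower), and 34 were also past the study's threshold with a log2 fold change below −1 (7.53% of all genes). In USP18 cells, all 41 were again lower (34.3% of all genes), 34 of them below −1 (8.74%). Every member had its 3 treated libraries below its 3 vehicle libraries in both vectors, an order seen in 33.7% of all genes with the empty vector and in 36.2% with USP18. The median log2 fold change of the members was −1.51 with the empty vector and −1.59 with USP18, and that of all genes was 0.01 in empty-vector cells. Leaving out any 1 library kept the count at 41 in both vectors. These 2 comparisons do not share libraries, but each shares its vehicle libraries with the other compounds and doses of the same vector.

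**Figure D3:**
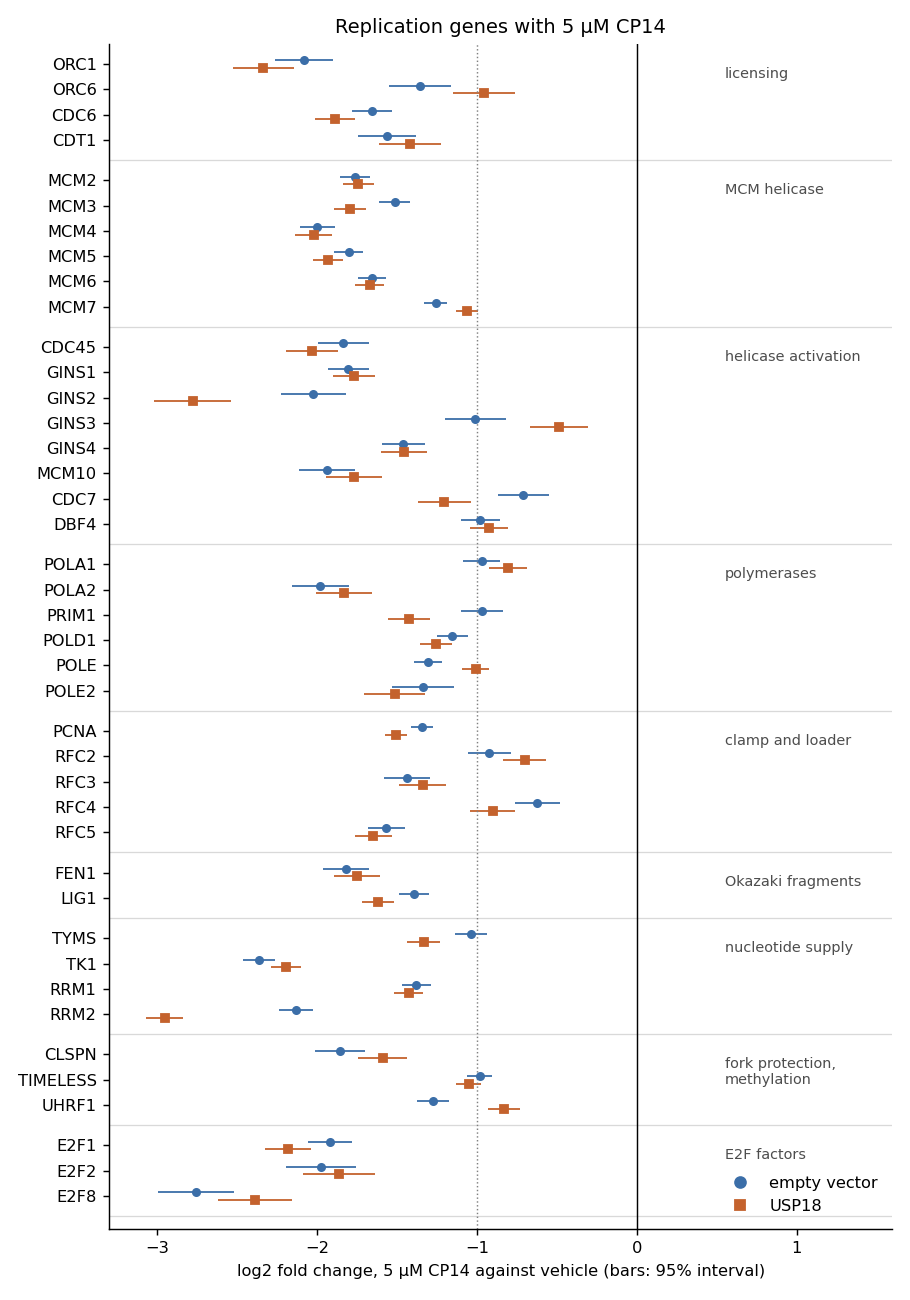
Log2 fold change with 5 µM CP14 against vehicle (x axis) for each of the 41 members, ordered by role (y axis), in empty-vector and USP18 cells; points are fitted values and lines 95% intervals. All 82 points lie below 0, from −2.95 to −0.49.

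The licensing genes had median log2 fold changes of −1.61 with the empty vector and −1.65 with USP18. ORC1 (ENSG00000085840.13, chr1:52372829-52404423), the largest subunit of the complex that marks origins, was read at 38.6, 36.2 and 41.7 CPM with vehicle and at 10.3, 8.45 and 8.89 CPM with CP14 and the empty vector. In USP18 cells its levels were 34.9, 35.3 and 33.4 CPM with vehicle and 7.47, 5.74 and 7.14 CPM with CP14. Treated and vehicle libraries were far apart in both vectors, and the treated mean was 23.7% and 19.7% of the vehicle mean. The log2 fold change of ORC1 was −2.08 (SE 0.0872) with the empty vector and −2.34 (SE 0.0917) with USP18 (adjusted p = 9.17e-15 and 2.01e-15, edgeR's quasi-likelihood test with Benjamini-Hochberg adjustment). CDT1, already lower in USP18 cells with vehicle, was at 13.7, 14 and 17.6 CPM with CP14 and the empty vector, and at 13, 10.6 and 11 CPM with CP14 and USP18. The vectors, apart with vehicle, were closer together here but still did not overlap. Its log2 fold changes were −1.56 (SE 0.0877) and −1.42 (SE 0.0931). CDC6, which loads MCM together with CDT1, was at −1.66 and −1.89, and ORC6 was the licensing gene with the smallest value, −1.35 and −0.96.

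The 6 subunits of the MCM helicase had median log2 fold changes of −1.71 with the empty vector and −1.77 with USP18. MCM4 (ENSG00000104738.17, on chromosome 8) had the largest value in both vectors. Its levels in empty-vector cells were 291, 281 and 294 CPM with vehicle and 69.9, 67.1 and 79.9 CPM with CP14. With USP18 they were 215, 211 and 206 CPM with vehicle and 46.8, 52.5 and 55.7 CPM with CP14. All USP18 libraries were below the empty-vector libraries of the same treatment, and the treated means were 25.1% and 24.5% of the vehicle means. The log2 fold changes of MCM4 were −1.999 (SE 0.0526) and −2.02 (SE 0.0548), and their difference between the vectors was −0.02 (95% interval −0.18 to 0.14). MCM7 had the smallest values of the helicase genes, −1.26 and −1.06.

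Among the genes that turn the loaded helicase on, the values ran from −2.02 to −0.71 with the empty vector and from −2.78 to −0.49 with USP18, the widest range of any role there, with medians of −1.63 and −1.61. GINS2, whose promoter stretch is shown above, was at 10.1, 9.55 and 10.8 CPM with CP14 and the empty vector, and at 3.47, 5.2 and 3.37 CPM with CP14 and USP18. The USP18 libraries were the lower ones here too, and the treated means were 24.6% and 14.5% of the vehicle means. Its log2 fold change was −2.02 (SE 0.0975) with the empty vector and −2.78 (SE 0.116) with USP18. GINS3 (ENSG00000181938.13), another subunit of the same complex, was at 23.4, 19.4 and 21.9 CPM with vehicle and 9.9, 11 and 11.3 CPM with CP14 and the empty vector. In USP18 cells GINS3 was at 22.6, 23.8 and 23.2 CPM with vehicle, and with CP14 its lowest and highest libraries were at 14.4 and 18.3 CPM. The treated libraries of USP18 cells were above those of empty-vector cells without overlap, the reverse of GINS2. GINS3 had log2 fold changes of −1.01 (SE 0.0925) and −0.49 (SE 0.0865), the latter the smallest of any member in USP18 cells. CDC7, the kinase that acts on loaded MCM, was at −0.71 and −1.21, and DBF4, its activator, at −0.98 and −0.93.

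The polymerase genes had medians of −1.23 with the empty vector and −1.34 with USP18. POLA2, the second subunit of the polymerase that starts each new strand, was at 38.2, 39.9 and 39.2 CPM with vehicle and 8.65, 10.2 and 10.8 CPM with CP14 and the empty vector. With USP18 its levels were 40.3, 37.1 and 36.6 CPM and 11.8, 10.8 and 9.13 CPM. Vehicle and treated libraries were well apart, and the vectors overlapped within each treatment. Its log2 fold changes of −1.98 (SE 0.0854) and −1.83 (SE 0.084) are uncertain, since 16.8% of its exon bases are shared on the same strand with another annotated gene, AP000944.2, which was given 18399 counts over the 54 libraries against 38784 for POLA2. The catalytic subunit of the same polymerase, POLA1, was at −0.97 and −0.80, and PRIM1, the primase, at −0.97 and −1.43. The values of PRIM1 are uncertain too. Of its exon bases, 10.9% are shared on the same strand with ENSG00000285625 and 4.2% with NACA. These were given 548 and 763857 counts over the 54 libraries, against 41612 for PRIM1.

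PCNA, the most abundant member, was at 201, 193 and 206 CPM with CP14 and the empty vector, and at 110, 108 and 112 CPM with CP14 and USP18. Replicates were close together, and each treatment and vector held its own range. The log2 fold changes of PCNA were −1.34 (SE 0.0319) and −1.51 (SE 0.0334). The genes of the loader that places PCNA on DNA ranged widely. RFC5 went from 67.8, 62.3 and 67.3 CPM to 21.9, 22.4 and 22.5 CPM in empty-vector cells, and from 70.4, 73.9 and 72 CPM to 24, 21.2 and 23.4 CPM in USP18 cells. RFC4 went from 42, 42.6 and 43.7 CPM to 27.1, 25.2 and 31.4 CPM with the empty vector, and from 44, 40.9 and 44.3 CPM to 23.8, 22.5 and 22.4 CPM with USP18. RFC5 and RFC4 are thus subunits of 1 complex with log2 fold changes of −1.57 (SE 0.0561) and −0.62 (SE 0.0664) in empty-vector cells, and treated libraries of both were below all vehicle libraries. RFC2 was at 48.4, 48.3 and 53.1 CPM with vehicle and 26.6, 26.3 and 26.4 CPM with CP14 and the empty vector, and at 45.8, 49.8 and 44.7 CPM and 25.7, 30.6 and 29.6 CPM in USP18 cells. It too did not overlap between vehicle and CP14, with log2 fold changes of −0.92 (SE 0.0647) and −0.70 (SE 0.0641).

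FEN1 (ENSG00000168496.4, chr11:61792911-61797238), the nuclease that trims the flaps of Okazaki fragments, was at 113, 113 and 121 CPM with vehicle and 31.5, 30 and 37.1 CPM with CP14 and the empty vector. In USP18 cells FEN1 was at 108, 107 and 107 CPM with vehicle and 28, 30.4 and 36.6 CPM with CP14. The treated libraries of the vectors overlapped, and all lay far below vehicle. The log2 fold changes were −1.82 (SE 0.0695) and −1.75 (SE 0.0697), and those of LIG1, the ligase that seals the fragments, were −1.40 and −1.62.

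Nucleotide supply had the largest median of the roles outside the E2F factors, −1.76 with the empty vector and −1.81 with USP18. TK1 (ENSG00000167900.12, chr17:78174091-78187233), the cytosolic thymidine kinase, was at 118, 118 and 120 CPM with vehicle and 22.8, 23.8 and 22.3 CPM with CP14 and the empty vector. In USP18 cells TK1 was at 128, 135 and 132 CPM with vehicle and 26.9, 28.3 and 30.8 CPM with CP14. USP18 libraries were the higher ones under both treatments, and all treated libraries were below all vehicle libraries. Its log2 fold changes were −2.37 (SE 0.0481) and −2.19 (SE 0.0458), with a treated mean of 19.5% of the vehicle mean in empty-vector cells. RRM2 (ENSG00000171848.15, chr2:10120698-10211725), the small subunit of ribonucleotide reductase, was at 250, 257 and 276 CPM with vehicle and 56.3, 57.5 and 65.1 CPM with CP14 and the empty vector. In USP18 cells its levels were 252, 253 and 245 CPM and 34.7, 30.3 and 31.2 CPM. The vectors overlapped with vehicle but not with CP14, where USP18 libraries were the lower ones. RRM2 fell by a log2 fold change of −2.13 (SE 0.0509) with the empty vector and −2.95 (SE 0.0549) with USP18, the largest of any member in USP18 cells. RRM1, the large subunit, was at −1.38 and −1.43, and TYMS, thymidylate synthase, at −1.04 and −1.33. Of the exon bases of TYMS, 39.9% overlap ENOSF1 on the opposite strand, which was given 33883 counts over all libraries against 179034 for TYMS, and the records do not say how strand was used in counting.

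CLSPN, a checkpoint adaptor that travels with the fork, was at 40.6, 41 and 45.9 CPM with vehicle and 10.3, 12.5 and 12.4 CPM with CP14 and the empty vector. In USP18 cells CLSPN was at 41.1, 41.1 and 39.3 CPM with vehicle and 12.8, 14.2 and 13.1 CPM with CP14. Vehicle and CP14 did not overlap, and the log2 fold changes were −1.86 (SE 0.0755) and −1.59 (SE 0.0738). TIMELESS, which holds the fork together, was at −0.98 and −1.05, and UHRF1, which guides DNA methylation to new strands, at −1.28 and −0.83.

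The 3 E2F factors had the largest medians of any role, −1.98 with the empty vector and −2.18 with USP18. E2F8 (ENSG00000129173.13, chr11:19224063-19241620), a repressor that is itself made in S phase, was at 19.4, 21.3 and 22.3 CPM with vehicle and 2.87, 3.28 and 3.15 CPM with CP14 and the empty vector. In USP18 cells E2F8 was at 21.2, 18.5 and 19.1 CPM with vehicle and 4, 4.11 and 3.01 CPM with CP14. All treated libraries were far below vehicle, and the treated mean in empty-vector cells was 14.8% of the vehicle mean, the lowest of the members. The log2 fold change of E2F8 was −2.76 (SE 0.114) with the empty vector and −2.39 (SE 0.11) with USP18 (adjusted p = 7.53e-15 and 3.41e-14, edgeR's quasi-likelihood test with Benjamini-Hochberg adjustment). The activators E2F1 and E2F2 were at −1.92 and −1.98 with the empty vector and −2.18 and −1.86 with USP18.

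**Figure D4:**
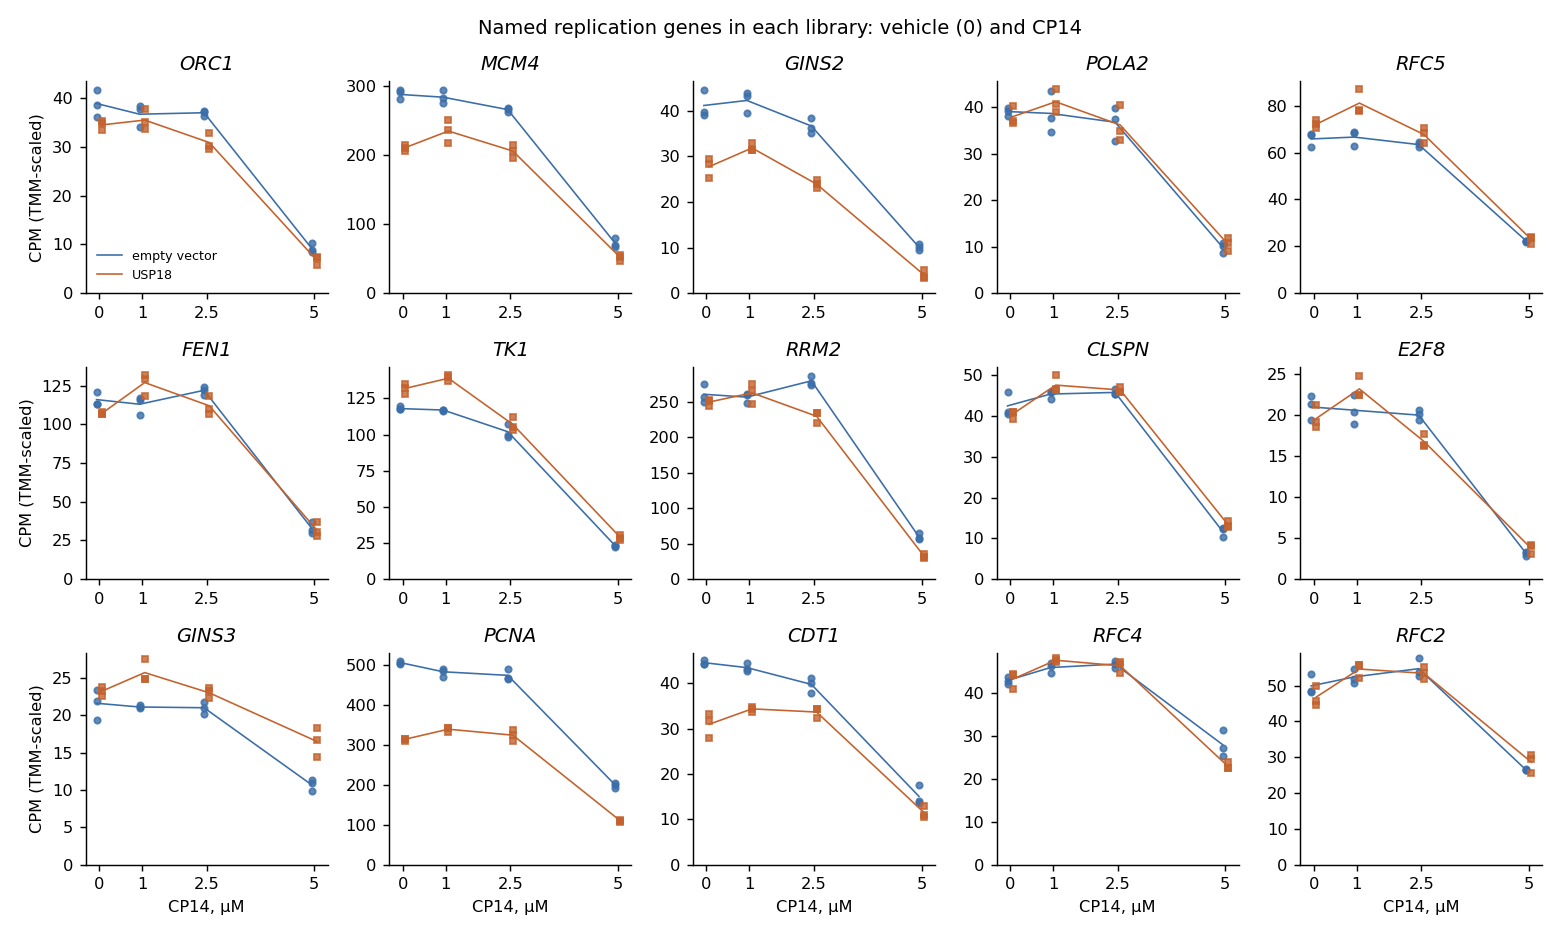
CPM in each library (y axis) of the 15 members whose values are given for every library, by CP14 dose in µM with vehicle at 0 (x axis), in empty-vector and USP18 cells; lines join group means of 3 libraries. Levels at 1 and 2.5 µM lie near vehicle, and those at 5 µM are below it, as for TK1 with 118 to 120 CPM with vehicle and 22.3 to 23.8 CPM at 5 µM in empty-vector cells.

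Whether the response to 5 µM CP14 differed between USP18 and empty-vector cells was tested as the difference between their fold changes, the interaction. The difference passed an adjusted p of 0.05 in 14 members, with 9 more strongly lowered in USP18 cells (14.4% of all genes tested were on that side) and 5 less strongly (13.3% of all genes). The median difference over the members was −0.01, with 0.02 without treated empty-vector replicate 3 and 0.04 without treated USP18 replicate 1. The 9 were RRM2, GINS2, CDC7, PRIM1, TYMS, RFC4, MCM3, LIG1 and PCNA, and the 5 were GINS3, UHRF1, ORC6, POLE and MCM7. The largest difference was that of RRM2, −0.82 (95% interval −0.98 to −0.66, adjusted p = 7.84e-08, edgeR's quasi-likelihood test with Benjamini-Hochberg adjustment), with all 3 treated USP18 libraries below all 3 treated empty-vector libraries. GINS2 differed by −0.76 (interval −1.09 to −0.42) and GINS3 by 0.52 (interval 0.26 to 0.79). RFC4 no longer passed without any 1 of 7 libraries, with a difference of −0.28 to −0.25 without vehicle replicate 1 or 2 of the empty vector, vehicle replicate 1 or 3 of USP18 or treated USP18 replicate 2 or 3, and −0.19 without treated empty-vector replicate 3. The count of less strongly lowered members, 5 of 41, was near the share of all genes, and the median difference of all genes was also −0.01.

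At 2.5 µM CP14, the same genes were close to vehicle. TK1 was at 100, 107 and 98 CPM in empty-vector cells and at 103, 105 and 112 CPM in USP18 cells, below its vehicle libraries in both. RRM2 was at 277, 274 and 287 CPM with the empty vector, overlapping vehicle, and at 220, 234 and 235 CPM with USP18, below it. CDT1 was at 40.2, 37.9 and 41.3 CPM with the empty vector, below vehicle, and at 32.4, 34.4 and 34.4 CPM with USP18, overlapping it.

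By test, 7 members were lower at 2.5 µM CP14 in empty-vector cells (8.07% of all genes), namely MCM5, POLE, TK1, E2F1, MCM3, MCM4 and MCM2, with log2 fold changes of −0.24 for MCM5, −0.22 for POLE and −0.21 for TK1. This count was 3 without vehicle replicate 1 or treated replicate 2 of the empty-vector cells and 4 without treated replicate 1. In USP18 cells 9 were lower (16.4% of all genes), from TK1 at −0.30 and POLE at −0.28 to RRM2 at −0.12, with E2F8, GINS2, MCM5, ORC1, MCM3 and RRM1 between, and 5 were higher (16.3%), GINS4 at 0.36, UHRF1 at 0.28, PRIM1, CLSPN and RFC2. The members' medians were −0.04 and −0.03. Treated USP18 replicate 1 stood apart, with a member share of 0.363% against 0.381% and 0.382%, and without it the USP18 count was 12 and the median 0.00. In USP18 cells 2 of 7 epithelial markers were lower and 3 higher (KRT8 −0.33, KRT7 0.58), and 2 of 3 alveolar type II markers were higher (LAMP3 2.81). Of leukocyte markers 1 of 2 was higher (CD68 0.61), and of fibroblast markers 1 of 3 was lower (COL3A1 −1.09). RNAs without a poly(A) tail took up 0.0143% to 0.0242% of counts in USP18 cells, against 0.0045% to 0.0109% with vehicle. With the empty vector KRT8 was at 5100 to 5470 CPM against 6120 to 6170 with vehicle. KRT7 there was at 1940 to 1980 CPM against 1630 to 1780, and ABCA3 at 60.4 to 62.7 against 49 to 55.7. The part of these in the members' results was not tested. Between the vectors, the response of RRM2 was lower in USP18 cells by −0.22 (3.92% of all genes were on that side), and those of CDT1, GINS4 and UHRF1 were higher by 0.29, 0.26 and 0.21 (4.08% of all genes). These 4 were 1 without treated replicate 2 of the empty-vector cells and 2 without empty-vector vehicle replicate 3, USP18 vehicle replicate 1 or treated USP18 replicate 2. The difference for CDT1 no longer passed, at 0.22 to 0.31, without any of the libraries compared but vehicle replicate 3 and treated replicate 1 of USP18 cells and treated replicate 3 of empty-vector cells.

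Of the members given by library, 5 rested on single libraries at 2.5 µM CP14. MCM4 in empty-vector cells no longer passed without vehicle replicate 1 or 3 or any treated replicate (−0.12 to −0.10). In USP18 cells E2F8 no longer passed without vehicle replicate 1 (−0.16) or treated replicate 1 or 3 (−0.19 and −0.20), and GINS2 without vehicle replicate 2 or 3 (−0.19 and −0.16) or treated replicate 1 (−0.18). RRM2 there no longer passed without vehicle replicate 1 or 2 (−0.11 each) or treated replicate 1 (−0.09). ORC1 there kept its call only without empty-vector vehicle replicate 2 or 3, treated empty-vector replicate 3 or treated USP18 replicate 1, and was at −0.18 to −0.13 without each of the other 8 libraries.

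At 1 µM CP14, edgeR's test called 0 members in empty-vector cells (0.861% of all genes in either direction), with 4 at an unadjusted p under 0.05 and 0 by DESeq2, which gave no adjusted p for 20 of them. In USP18 cells 23 members were higher (7.40% of all genes) and 1, POLE, was lower with a log2 fold change of −0.17 (7.94%). The median was 0.15, the highest value was 0.28 for POLE2, and 40 of the 41 values were above 0. The 24 calls were 12 without treated replicate 2 of the USP18 cells. In the treated USP18 libraries RNAs without a poly(A) tail took up 0.0124% to 0.0891% of counts, against 0.0045% to 0.0109% with vehicle. The mitochondrial share was 3.28% to 4% there, against 2.68% to 3.25% with vehicle. Treated USP18 replicate 3 held the most RNA without a poly(A) tail, 0.0891%, and had a member share of 0.4%. The part of these shares in the members' results was not tested. The response was higher in USP18 cells than in empty-vector cells for 8 members (2.60% of all genes), E2F1, CDC45, FEN1, GINS4, UHRF1, MCM6, MCM2 and PCNA. That count was 5 without empty-vector vehicle replicate 3 or USP18 vehicle replicate 1 or 3, and 4 without treated replicate 2 of the empty-vector cells.

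Steps between doses of CP14, a comparison chosen after seeing the data that uses no vehicle library, gave 41 lower members from 2.5 to 5 µM in each vector (29.7% of all genes with the empty vector and 31.8% with USP18), with medians of −1.50 and −1.64. From 1 to 2.5 µM, 4 members were lower with the empty vector (5.40% of all genes) and 20 with USP18 (12.3%), where the median was −0.17.

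CP18 gave small differences, and FEN1 shows their size. In USP18 cells FEN1 was at 131, 128 and 135 CPM with 1 µM CP18, at 139, 134 and 139 CPM with 2.5 µM and at 137, 133 and 137 CPM with 5 µM. All 9 libraries were above the USP18 vehicle libraries at 107 to 108 CPM. In empty-vector cells with 2.5 µM CP18, FEN1 was at 125, 121 and 130 CPM, next to vehicle at 113 to 121 CPM. All comparisons of USP18 cells use the same 3 vehicle libraries, in which many members were lower than with the empty vector, so their values are given side by side and are not independent of each other.

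With 1 µM CP18, edgeR's test called 0 members in empty-vector cells (0.368% of all genes in either direction), with 2 at an unadjusted p under 0.05 and 0 by DESeq2, which gave no adjusted p for 13. In USP18 cells 21 members were higher (7.74% of all genes) and POLE was lower at −0.18 (8.00%), with a median of 0.14. Those 22 calls were 11 without USP18 vehicle replicate 1, 14 without USP18 vehicle replicate 3 and 12 without treated replicate 3. The mitochondrial share of the treated USP18 libraries was 3.42% to 4%, against 2.68% to 3.25% with vehicle. KRT19 was at 30.1 to 34.4 CPM there against 26.6 to 27.7, and ABCA3 at 33.8 to 37.2 against 39.9 to 43.3. The part of these in the members' results was not tested. The response was higher in USP18 cells for 11 members (2.78% of all genes), GINS2, E2F1, UHRF1, MCM6, CDC6, TK1, FEN1, MCM2, MCM4, PCNA and MCM7. The 11 became 5 without empty-vector vehicle replicate 3, USP18 vehicle replicate 2 or treated empty-vector replicate 2, 6 without USP18 vehicle replicate 1 or 3 or treated USP18 replicate 3, and 7 without empty-vector vehicle replicate 1 or treated USP18 replicate 2.

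With 2.5 µM CP18 in empty-vector cells, POLE, the catalytic subunit of the leading-strand polymerase, was lower at −0.21 (3.63% of all genes were lower) and FEN1 was higher at 0.12 (2.34% were higher). These 2 calls were 0 without treated replicate 1, 1 without empty-vector vehicle replicate 1 or 2, any 1 of the 3 USP18 vehicle libraries or treated replicate 3, and 4 without empty-vector vehicle replicate 3. In USP18 cells 23 members were higher (7.19% of all genes), with FEN1 at 0.36 and UHRF1 at 0.28, and POLE was lower at −0.23 (7.00%). The median was 0.13, and the 24 calls were 15 without USP18 vehicle replicate 1 or treated replicate 1. KRT19 was at 28.1 to 32.3 CPM in the treated USP18 libraries against 26.6 to 27.7 with vehicle. ABCA3 was at 35.9 to 39.4 CPM against 39.9 to 43.3. The part of these markers in the members' results was not tested. The responses of FEN1 and PCNA were higher in USP18 cells by 0.24 and 0.18 (0.0699% of all genes). These 2 calls were 1 without empty-vector vehicle replicate 3 or treated empty-vector replicate 3. They were 0 without empty-vector vehicle replicate 1, any 1 of the 3 USP18 vehicle libraries, treated empty-vector replicate 1 or 2, or treated USP18 replicate 1 or 3.

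With 5 µM CP18 in empty-vector cells, MCM2 and POLE were lower at −0.22 and −0.19 (4.30% of all genes). The calls were 1 lower without empty-vector vehicle replicate 1 or 2, 4 lower and 1 higher without treated replicate 1, and 7 lower and 3 higher without treated replicate 3 (10 in all). In USP18 cells 14 members were higher (4.32% of all genes), with UHRF1 at 0.34 and FEN1 at 0.33 and a median over the members of 0.13. The 14 were 6 without USP18 vehicle replicate 1 or 3, 7 without USP18 vehicle replicate 2, 4, 9 and 8 without treated replicates 1, 2 and 3, and 23 without replicate 3 of the empty-vector cells with CP18, which shares the estimate of spread. In the treated USP18 libraries KRT8 was at 3480 to 3640 CPM against 3720 to 3830 with vehicle, and COL3A1 at 1.71 to 2.2 against 3.24 to 3.41. KRT19 was at 29.4 to 32.3 CPM against 26.6 to 27.7. The part of these markers in the members' results was not tested. The responses of MCM2 and MCM6 were higher in USP18 cells by 0.38 and 0.30 (0.0447% of all genes). These 2 calls were 0 without any 1 of the empty-vector vehicle libraries, USP18 vehicle replicate 1 or 3 or treated USP18 replicate 1, 1 without USP18 vehicle replicate 2 or treated USP18 replicate 2 or 3, 5 without treated empty-vector replicate 2 and 8 without treated empty-vector replicate 3.

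With 2 µM CP2, edgeR's test called 0 members in either vector (1.84% of all genes with the empty vector and 1.13% with USP18). At an unadjusted p under 0.05 there were 6 and 5, and DESeq2 called 0 in both. For the difference between the vectors, edgeR called 0 members (0.0569% of all genes), with 2 at an unadjusted p under 0.05 and 0 by DESeq2, which gave no adjusted p for 4.

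With 5 µM CP2, PCNA was at 454, 447 and 459 CPM in empty-vector cells and at 340, 340 and 331 CPM in USP18 cells. The first were below their vehicle libraries and the second above theirs, so that the vectors were nearer to each other than with vehicle. In empty-vector cells 8 members were lower (6.83% of all genes), the 3 E2F factors with E2F8 at −0.29, and MCM5, POLE, PCNA, MCM4 and MCM6, with MCM5 at −0.16 and PCNA and POLE at −0.14. That count was 5 without empty-vector vehicle replicate 2. In the same cells KRT8 was at 5030 to 5400 CPM against 6120 to 6170 with vehicle, and EPCAM at 9 to 9.93 against 11.1 to 13.3. CD14 was at 1.51 to 2.39 CPM against 2.72 to 3.08, whereas KRT7 was at 1810 to 1940 against 1630 to 1780. The part of these markers in the members' results was not tested. In USP18 cells 23 members were higher (8.65% of all genes), led by UHRF1 at 0.37 and GINS4 at 0.35, with a median of 0.14. Those 23 were 15 without USP18 vehicle replicate 1 or treated replicate 2 and 14 without treated replicate 3. RNAs without a poly(A) tail took up 0.0192% to 0.0226% of counts in these treated libraries, against 0.0045% to 0.0109% with vehicle. Markers moved in both directions. KRT8 was at 3400 to 3430 CPM against 3720 to 3830 with vehicle, and COL3A1 at 1.72 to 2.06 against 3.24 to 3.41. KRT7 was at 1640 to 1660 CPM against 1500 to 1540. The part of these in the members' results was not tested. The response was higher in USP18 cells for 10 members (0.266% of all genes), UHRF1 at 0.40, GINS4, MCM5, MCM2, MCM10, MCM4, POLA1, MCM6, FEN1 and PCNA, with a median difference over the 41 of 0.22. The 10 were 6 without any 1 of the USP18 vehicle libraries or treated USP18 replicate 2 or 3, and 19 without treated empty-vector replicate 3.

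**Figure D5:**
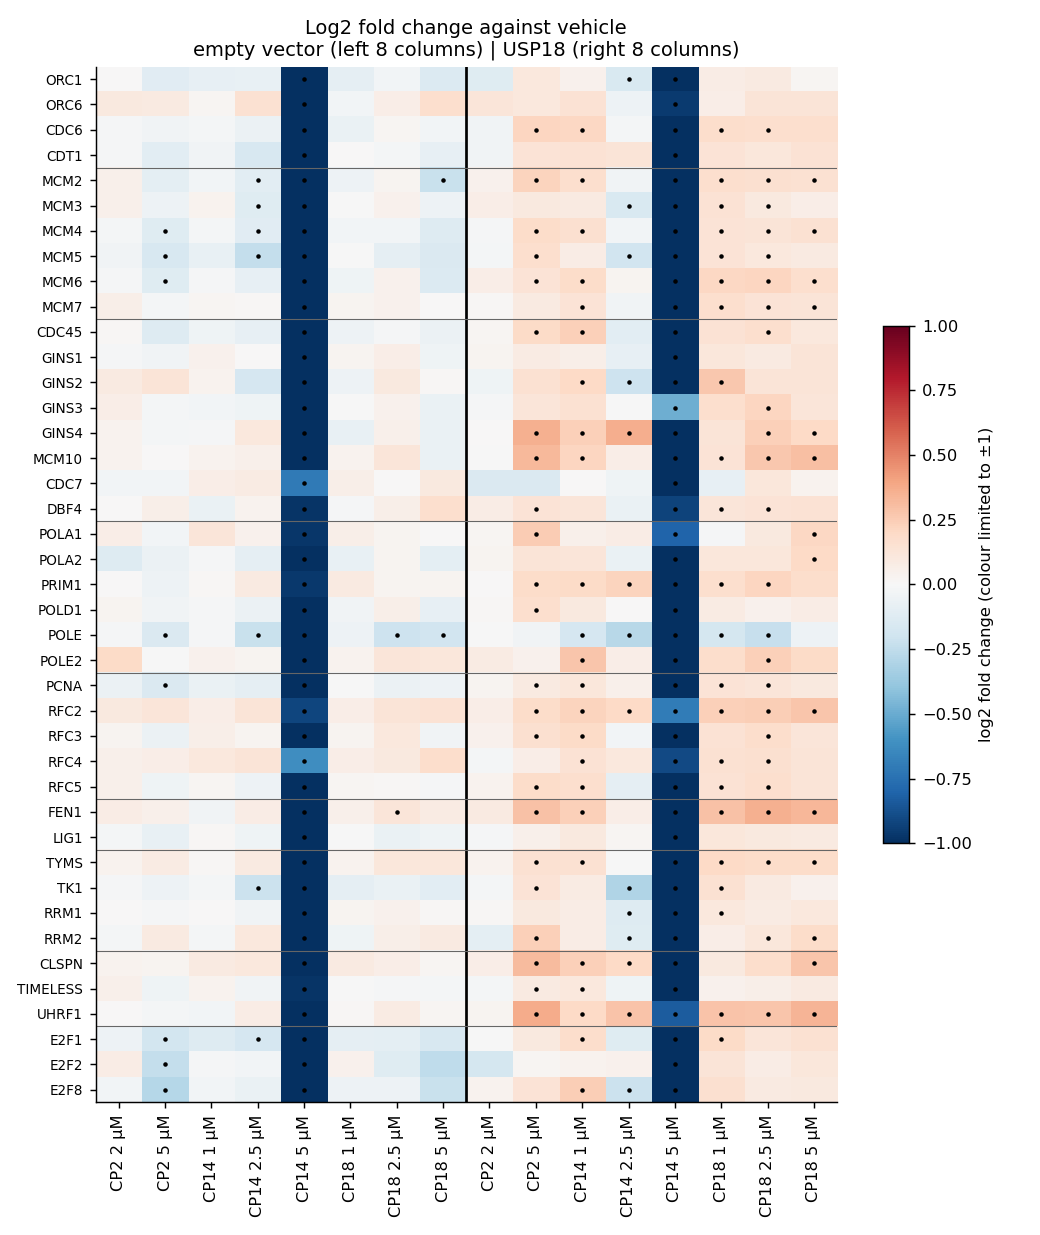
Log2 fold change against vehicle of the 41 members (y axis, by role) for each compound, dose and vector (x axis), on a color scale limited to 1 in each direction; dots mark an adjusted p under 0.05. The 2 columns of 5 µM CP14 run from −2.95 to −0.49, and medians of the other columns lie between −0.04 and 0.15.

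The compounds were then set against each other at matched doses without the vehicle libraries, in 10 pairs. At 5 µM, all 41 members were lower with CP14 than with CP18, in empty-vector cells (29.2% of all genes; 35 below −1, against 6.55%) and in USP18 cells (32.8%; 38 below −1, against 8.29%), with medians of −1.48 and −1.72. CP14 against CP2 at 5 µM likewise gave 41 lower members in empty-vector cells (29.2%; 35 below −1, against 6.35%) and 41 in USP18 cells (33.0%; 37 below −1, against 8.20%), with medians of −1.46 and −1.82. At 2.5 µM, GINS2, MCM3, MCM5 and MCM6 were lower with CP14 than with CP18 in empty-vector cells (0.974% of all genes), GINS2 by −0.27 and MCM5 by −0.16. These 4 calls became 0 without CP14 replicate 1 or 3 or any 1 of the 3 CP18 libraries, and 2 without CP14 replicate 2. In USP18 cells 24 members were lower with 2.5 µM CP14 than with CP18 (13.9% of all genes), with TK1 at −0.38, GINS2 at −0.33, FEN1 at −0.29 and RRM2 at −0.23 and a median of −0.18. TK1 was at 145, 140 and 135 CPM with CP18 there, above all 3 libraries with CP14.

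For the remaining pairs no member passed the threshold. At 1 µM, CP14 and CP18 gave 0 calls by edgeR in empty-vector cells (0.0191% of all genes in either direction), with 0 at an unadjusted p under 0.05 and 0 by DESeq2. The 95% intervals of the members' differences there all lay between −0.19 and 0.21. In USP18 cells edgeR called 0 members (0.0191% of all genes), with 2 at an unadjusted p under 0.05 and 0 by DESeq2, which gave no adjusted p for 20, and the intervals lay between −0.22 and 0.26. At 5 µM, CP18 and CP2 gave 0 calls by edgeR in empty-vector cells (0.0310% of all genes), with 2, MCM2 and PCNA, at an unadjusted p under 0.05 and 0 by DESeq2, and intervals between −0.28 and 0.31. In USP18 cells edgeR called 0 (0.0186% of all genes), with 2, CDC7 and GINS4, at an unadjusted p under 0.05 and 0 by DESeq2, and intervals between −0.29 and 0.36. A missed threshold does not show that these compounds act alike, and the intervals give the size of difference that the data allow.

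Related genes outside the 41 were read for comparison at 5 µM CP14. Of 41 other genes of the replication machinery, 33 were lower and 4 higher with the empty vector and 35 and 2 with USP18, with medians of −0.77 and −0.68, nearer to 0 than those of the members. The histone chaperone ASF1B was at −2.37 and −2.25 and the origin factor TICRR at −2.30 and −1.91, whereas TOP1, a topoisomerase, was at 0.51 and 0.89. Of 17 other genes of nucleotide supply, 10 were lower and 3 higher with the empty vector and 13 and 2 with USP18 (median −0.37 in both), with DUT, which breaks down dUTP, at −1.14 in each vector and CTPS1 at 0.93 and 0.52. Of 23 other genes of the E2F and RB pathway, 17 were lower and 5 higher with the empty vector and 14 and 4 with USP18 (medians −0.49 and −0.18). Among them CCNA2, an S phase cyclin, was at −2.12 and −1.95, and CDKN1A, the inhibitor of cyclin-dependent kinases, was higher at 1.31 and 2.07. CDKN1A also differed with vehicle, at 282, 273 and 282 CPM in empty-vector cells and 109, 104 and 105 CPM in USP18 cells, without overlap. All 30 genes of a mitosis list were lower in both vectors (medians −1.73 and −1.75), with KIF20A at −2.68 and −2.74, so that the decrease at 5 µM CP14 was shared by genes of another phase of the cycle. RNAs that carry no poly(A) tail were counted by entry, and RMRP has 2 entries. Of 8 entries tested, 7 were lower with 5 µM CP14 and the empty vector (median −1.92). The median with USP18 was 0.01. With the empty vector, 1 RMRP entry, at −8.91 (SE 2.84), was read at 0, 9.35 and 0 CPM with vehicle and at 0 with CP14. The share of counts of these RNAs was 0.00236% to 0.0891% over all libraries. It differed among the empty-vector vehicle libraries themselves, at 0.0217%, 0.05001% and 0.00669%, the last within the 0.00509% to 0.00932% of the treated ones. Their part in the members' results was not tested.

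At 2.5 µM CP14, 25 of the 30 mitosis genes were lower in USP18 cells (median −0.24) and 1 in empty-vector cells, where 16.4% and 8.07% of all genes were lower. Of the 41 members, 9 and 7 were lower there, and the difference between the lists was not tested. Treated USP18 replicate 1, which stood apart for the members, was also the lowest for the mitosis genes KIF20A and MKI67. KIF20A was at 62.9 CPM there, against 74.5 and 79.9 in the other treated USP18 libraries, and MKI67 at 315 against 442 and 472. The mitosis list was not refitted without that library.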

How the data were processed

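According to the records, reads were trimmed with cutadapt 1.18, aligned to hg38 with STAR 2.7.0f and turned into gene-level expected counts by RSEM 1.3.1 (the methods of the paper name another RSEM version, and a human GENCODE annotation for the alignment but a mouse one for RSEM, although the gene identifiers are human). The labels name poly(A) capture with a stranded mRNA kit, whereas the methods name ribosomal depletion of total RNA. From the rounded expected counts (94% of them whole as deposited), genes were filtered by edgeR 4.0.16 (filterByExpr, minimum count 10, minimum total 15) and scaled by TMM. Each compound and dose was fitted with the vehicle libraries of both vectors (12 libraries), the vehicle comparison on 6 libraries, and compound pairs on the treated libraries of a dose. Tests were edgeR's quasi-likelihood tests, two-sided, with edgeR's default prior count and Benjamini-Hochberg adjustment over all genes tested. A prior count of 2 was used only for the log2 CPM behind the correlations between libraries. CPM was computed from the same counts. Between libraries of a group, the chi-square per gene was 1.8 to 11.1, above what counting error alone gives. Values in every library are given for the members with the largest change by role at 5 µM CP14, the largest difference between vectors there or with vehicle, and the smallest change; other genes outside the members were named by the size of their change. Members and lists were chosen with earlier results of these data known.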

Additional observations from a re-analysis of the deposited data

Results flagged for a closer look

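Responses that differed between empty-vector and USP18 cells, by a test of the difference itself, were found for 8 members at 1 µM CP14, 4 at 2.5 µM and 14 at 5 µM, for 11 at 1 µM CP18, 2 at 2.5 µM and 2 at 5 µM, and for 10 at 5 µM CP2. Of all genes tested, 2.60% differed in the same direction at 1 µM CP14, 2.78% at 1 µM CP18, 0.0699% at 2.5 µM CP18, 0.0447% at 5 µM CP18 and 0.266% at 5 µM CP2. At 2.5 µM CP14, 3.92% of all genes were lower and 4.08% higher, and at 5 µM CP14, 14.4% and 13.3%, so that the 4 members at 2.5 µM and the 5 of 41 less strongly lowered at 5 µM lie near the share of all genes. At 5 µM CP14, where the members were lower in both vectors, the largest differences were those of RRM2 (log2 −0.82), GINS2 (−0.76) and GINS3 (0.52). The counts at the same vector share vehicle libraries, and each vector is 1 engineered population, so USP18 and other differences between the populations cannot be told apart.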

How the results depend on the processing

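The counts of 41 members lowered by 5 µM CP14, against vehicle or against another compound, were 41 under every setting tried, leaving out each library included, and no called value changed direction. The smaller counts moved, and the cause was not tested. With all 54 libraries in 1 fit, the interaction count was 2 at 2.5 µM CP14, 0 at 2.5 µM CP18 and 8 at 5 µM CP18, and the 5 µM CP18 counts were 8 with the empty vector (7 lower, 1 higher) and 23 with USP18; the 2.5 µM CP18 count with the empty vector was 1. On 6 libraries, 5 µM CP18 gave 0 with the empty vector and 25 with USP18, and 5 µM CP2 gave 2 with the empty vector. With RLE size factors, 2.5 µM CP18 gave an interaction count of 0 and 5 µM CP18 gave 4 with the empty vector, as did a filter at 10 counts (4). DESeq2 gave 5 there and 8 for the interaction. Without a filter, interaction counts were 7 at 5 µM CP18 and 16 at 5 µM CP2, and 2 µM CP2 with USP18 gave 1. With the replicate number as a block, interaction counts at 2.5 and 5 µM CP18 were 1 and 1. Of 123 pairs of libraries with the same number, 1 had a residual correlation over 0.1 (highest 0.103, median −0.00706). Little shared variation was thus seen between libraries of the same number, which does not show that they were prepared separately. Adjusted over all 10 pairs, CP14 against CP18 gave 1 at 1 µM with USP18 and 7 at 2.5 µM with the empty vector.

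Against the next lower dose in place of vehicle, a comparison chosen after seeing the data, counts were 4 at 2.5 µM CP14 with the empty vector, 0 at 2.5 µM CP18 in both vectors, 0 at 5 µM CP18 with USP18 and 3 at 5 µM CP2 with the empty vector.

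Leaving out each library in turn gave 12 to 24 (USP18) and 4 to 11 (interaction) at 1 µM CP14, and 3 to 10 (empty vector) and 1 to 5 (interaction) at 2.5 µM CP14. It gave 11 to 23 (USP18) and 5 to 13 (interaction) at 1 µM CP18, 0 to 4 (empty vector), 15 to 25 (USP18) and 0 to 2 (interaction) at 2.5 µM CP18, and 1 to 10, 4 to 23 and 0 to 8 at 5 µM CP18. At 5 µM CP2 it gave 5 to 8 (empty vector), 14 to 27 (USP18) and 6 to 19 (interaction), and for CP14 against CP18 at 2.5 µM with the empty vector, 0 to 5. Of the values of named members, planned settings left 1239 on their side of the threshold, moved 3 past it and 50 off it, with 2384, 6 and 196 for libraries left out. Of the members' medians, 2 of the planned settings' values and 25 of those with a library left out moved beyond the spread between replicates, with 234 and 425 within it. With a library left out, the interaction median at 5 µM CP14 changed sign (to 0.04), and the empty-vector median at 5 µM CP2 went to −0.07.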
